A study of Mus musculus with 16 samples.

Results

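The genes described here are 36 genes of the unfolded protein response and the integrated stress response, named by symbol and read from the deposited gene table of mouse liver. All 36 were found among its 30463 genes, each in 1 row, and all 36 were among the 16288 genes that the authors tested, so no member was lost to a filter on low values. They fall into 19 genes of protein folding and disposal in the endoplasmic reticulum (ER), here the chaperone group, 10 genes of the ATF4 arm, and 7 stress sensors and phosphatase subunits. The chaperone group holds 14 chaperones and folding enzymes and 5 genes of ER-associated degradation. The ATF4 group holds 6 regulators and 4 enzymes.

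RNA of whole liver was sequenced from 16 mice of the C57BL/6N strain, wild type and 14 weeks old, in 4 groups of 4. Vehicle or diethylnitrosamine (DEN), a liver carcinogen, was given at 2 weeks of age, and from 6 weeks the mice were kept on control diet or moved to a diet labelled 60% high fat. Each diet thus has 1 group given vehicle and 1 given DEN (CD-Vehicle, CD-DEN, HFD-Vehicle and HFD-DEN), and all share the wild-type strain. The library columns of the table carry codes that match no sample label, so values per mouse, the effect of each diet and the effect of DEN were not analysed here. What follows rests on 1 comparison by the authors, whose sides are not named. A positive log2 fold change means higher RNA on its positive side.

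The unfolded protein response is the set of signals by which a cell answers a load of unfolded protein in the ER. ATF6 and the IRE1-XBP1 pair raise chaperones and degradation factors, while PERK phosphorylates the translation factor eIF2alpha. Phosphorylation of eIF2alpha, which GCN2 also carries out when amino acids are short, is the integrated stress response: it slows translation in general and favours that of ATF4, which in turn raises genes of amino acid supply and of cell fate. Hepatocytes secrete most plasma proteins and hold an extensive ER. The measurements are of RNA summed over each gene, so they do not show eIF2alpha phosphorylation, ATF6 cleavage, Xbp1 splicing or protein levels.

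Promoter sites are printed because the chaperone and ATF4 groups are known targets of different factors. Promoter windows from 250 bases before to 50 after the RefSeq start (GRCm38.p6) were found for 32 of the 36 members, and 4 have none (Atf6, Hyou1, Manf and Ppp1r15b). The ER stress response element, which ATF6 binds together with NF-Y, was searched as CCAAT, 9 bases, CCACG, and a second form of it as ATTGG, 1 base, CCACG, on both strands. Either form was present in 11 of 17 chaperone group genes with a window (64.7%) and in 0 of 10 ATF4 group genes, beside 0.181% of all 27025 genes with a window. The sites below are read 5′ to 3′ along the strand of the gene from RefSeq, with the matched site in capitals. Where the match is on the opposite strand the capitals begin with CGTGG and end with ATTGG. Hspa5 is shown as the archetype, Hsp90b1 because it holds a site on each strand, and Creld2, Derl3 and Syvn1 because their standard errors were among the widest, as given further on. Canx is shown because its standard error was narrow. Sdf2l1, whose standard error was also among the widest, holds neither form in its window.
Hspa5, chr2:34772020-34772048, plus strand: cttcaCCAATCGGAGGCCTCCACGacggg
Hsp90b1, chr10:86705633-86705661, minus strand: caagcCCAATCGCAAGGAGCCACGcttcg
Hsp90b1, chr10:86705528-86705556, minus strand: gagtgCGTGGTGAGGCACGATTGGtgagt
Creld2, chr15:88819515-88819543, plus strand: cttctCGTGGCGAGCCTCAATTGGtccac
Derl3, chr10:75893237-75893265, plus strand: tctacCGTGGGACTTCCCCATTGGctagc
Syvn1, chr19:6046527-6046555, plus strand: cgcaaCCAATCGGCGGTAGCCACGggaac
Canx, chr11:50325795-50325823, minus strand: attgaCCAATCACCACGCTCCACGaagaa

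The element also stood in the windows of Calr, Pdia6 and Dnajc3, and its second form in those of Herpud1 and, past the start, Dnajb11. The site of Hspa5 begins 65 bases before the start and that of Syvn1 44 bases before it. The core of the XBP1 element, TGACGTGG, was found in none of the 32 members and in 0.714% of all genes with a window. A match is a description of letters in this window, and no match says nothing about binding elsewhere.

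The CEBP-ATF element, at which ATF4 pairs with a CEBP factor, was searched as TGATGNAA on both strands. It was present in 5 of 10 ATF4 group genes (Atf3, Trib3, Nupr1, Asns and Chac1) and in 1 of 17 chaperone group genes (Herpud1), beside 4.51% of all genes with a window. The sites below are shown because they stand in genes whose estimates went in different directions. That of Trib3 lies past the start and is not printed. Their capitals read TTGCATCA where the match is on the strand opposite to the gene.
Atf3, chr1:191183425-191183454, minus strand: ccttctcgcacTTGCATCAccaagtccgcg
Chac1, chr2:119351038-119351067, plus strand: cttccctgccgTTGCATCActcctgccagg
Nupr1, chr7:126625562-126625591, minus strand: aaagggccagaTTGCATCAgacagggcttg
Herpud1, chr8:94386306-94386335, plus strand: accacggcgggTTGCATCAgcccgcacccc
Asns, chr6:7693214-7693243, minus strand: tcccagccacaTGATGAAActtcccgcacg

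The ER chaperones were among the most abundant RNAs of the liver, and most of the ATF4 arm was not. Levels are compared here as the authors' mean normalized count per kb of exon, with exon lengths from GENCODE M21. Hspa5, which encodes BiP, the main ER chaperone of the HSP70 family, was highest of the members at 7346 per kb, above 99.1% of tested genes. Hsp90b1, the ER form of HSP90, followed at 5688 per kb, and Calr, the calcium-binding lectin chaperone calreticulin, at 5540. Every one of the 14 chaperones and folding enzymes lay above 94% of tested genes on this scale, Dnajb9 being the lowest of them at 811 per kb (94.5%). Among the degradation genes the range was wide, from Herpud1 at 4888 per kb to Derl3 at 152.

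In the ATF4 group, the transcription factor gene Atf5 stood at 4790 per kb and Atf4 itself at 784, and the other 8 genes lay at 152 per kb or lower. Chac1, which encodes a glutathione-degrading enzyme, was at 152 per kb and Ddit3, which encodes the death-associated factor CHOP, at 88.2. Asns, the asparagine synthetase gene, was at 56.1 per kb, Trib3, a pseudokinase gene, at 45.2 and Atf3, a stress-induced repressor gene, at 28.5. The genes of serine synthesis were near the lower end, with Psat1 at 6.19 per kb and Phgdh at 1.95, above 8.0% of tested genes. Of the sensors, Ern1 (IRE1) was at 136 per kb, Eif2ak3 (PERK) at 64.8 and Eif2ak4 (GCN2) at 31.6. Atf6 stood higher at 248, and Xbp1, the transcription factor gene whose RNA IRE1 splices, at 1482 per kb. The spread between libraries was not analysed here, so genes that are neighbours in this order are not ranked against each other.

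**Figure D1:**
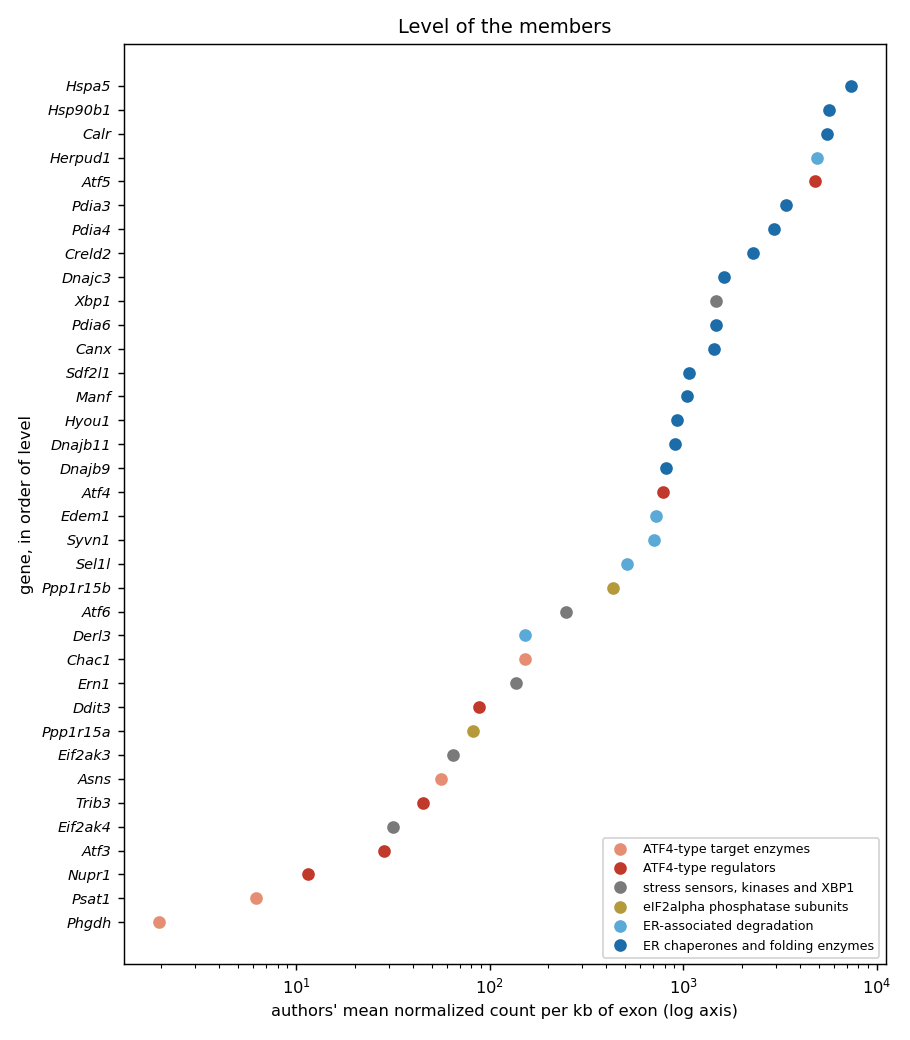
The authors' mean normalized count per kb of exon (x axis, log scale) is plotted for each of the 36 members (y axis, in order of level), with 1 point per gene coloured by its role. All 14 chaperones and folding enzymes lie in the upper part, from Hspa5 at 7346 per kb to Dnajb9 at 811, and Phgdh is lowest at 1.95.

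In the authors' comparison, 2 of the 36 members passed an adjusted p below 0.05, both positive and both regulators of the ATF4 arm, Atf3 and Atf4. That is 5.56% of the members, beside 6.57% of all tested genes, so the members as a whole were called at about the rate of the background. Calls on the positive side made up 3.67% and calls on the negative side 2.9% of all tested genes. None of the 19 genes of the chaperone group was called by the authors' test, and 1 of them (Dnajb9, positive) had an unadjusted p below 0.05. Of all 16288 tested genes, 1570 were positive and 1532 negative at that unadjusted threshold. Every count at an unadjusted p below 0.05 is to be read beside these. By sign, 25 of the 36 members were positive, beside 49.2% of all tested genes. The median log2 fold change was 0.08 over the members and -0.0044 over all tested genes. In whole tissue, a change in the share of a cell type and a change in RNA per cell cannot be told apart, and this touches every value below.

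Atf3 had the widest difference of the members. The authors' deposited table gives it a log2 fold change of 2.26 ± 0.58 (SE, adjusted p = 0.00476), which is 4.78-fold with a 95% interval of 2.16 to 10.6. Its mean normalized count was 61.4, so the difference concerns a transcript of low level. Atf3 (ENSMUSG00000026628) lies on chromosome 1 from 191170296 to 191218039 on the minus strand in GRCm38. These GENCODE bounds reach further upstream than the RefSeq start of its promoter window, so the site printed above lies inside them. Atf3 also belongs to the early response to many stimuli, so 16 immediate early genes were read beside it. Of these, 0 were called positive and 1 was called negative (6.25%, beside 6.57% of all tested genes). The called gene was the growth regulator gene Myc at -0.83 ± 0.21 (log2, SE, adjusted p = 0.00370, from the authors' deposited table). At an unadjusted p below 0.05 there were 0 positive and 3 negative, and the median of the 16 genes was -0.12. Fos at -0.16 ± 0.49 (adjusted p = 0.912) and Egr1 at 0.42 ± 0.38 (adjusted p = 0.611) are named after their values were seen (log2, SE, from the authors' deposited table).

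Atf4 was called with the smallest p of the members. The authors' deposited table puts it at a log2 fold change of 0.36 ± 0.086 (SE, adjusted p = 0.00198), a 1.28-fold difference with a 95% interval of 1.14 to 1.44, at a mean normalized count of 1849. This is a small difference measured with high precision, since the SE of Atf4 is 0.740 times the median SE of the 500 tested genes nearest to it in level. Atf4 (ENSMUSG00000042406) lies on chromosome 15 from 80255184 to 80257541 on the plus strand. Neither Atf3 nor Atf4 was called when the authors' statistics were divided by 1.438. This divisor is the median absolute deviation of all of them, scaled to the standard deviation of a normal distribution. That step left 0.872% of all tested genes called. Their Benjamini-Hochberg adjusted p was then 0.305 for Atf3 and 0.228 for Atf4, computed from the authors' statistics. ATF4 is controlled chiefly at translation, so its RNA is not a measure of the protein.

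Among the other regulators, Ddit3 came nearest to a call. Its log2 fold change was 0.69 ± 0.25 (SE, adjusted p = 0.0822, from the authors' deposited table), with a 95% interval of 1.14- to 2.27-fold. Ddit3 overlaps Mars, the methionyl-tRNA synthetase gene, on the opposite strand, which had a mean normalized count of 1155 beside 151.1 for Ddit3. Mars had a log2 fold change of 0.091 ± 0.077 (SE, adjusted p = 0.569, from the authors' deposited table). The sources used here do not give the strand setting of the counting, so reads of that overlap cannot be assigned to either gene. GENCODE M21 also holds a second protein-coding gene named Ddit3, which overlaps the member on the same strand and has no deposited values. Trib3 was at 0.56 ± 0.40 (adjusted p = 0.484), Nupr1, a chromatin-binding stress gene, at -0.041 ± 0.29 (adjusted p = 0.963) and Atf5 at -0.29 ± 0.20 (adjusted p = 0.453), all log2 with SE in the authors' deposited table. Atf5, far more abundant than Atf4 per kb, thus had an estimate of the opposite sign with an interval that includes 0 (-0.67 to 0.10).

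The estimates for the enzymes that ATF4 is known to raise differed in sign, and the 95% intervals of Chac1, Psat1 and Phgdh included 0. Asns had a log2 fold change of -0.73 ± 0.37 (SE, unadjusted p = 0.0478, adjusted p = 0.257) in the authors' deposited table. Chac1 was at 0.40 ± 0.40 (adjusted p = 0.655), Psat1 at -0.15 ± 0.39 (adjusted p = 0.892) and Phgdh, with a mean normalized count of 4.84, at 0.91 ± 0.61 (adjusted p = 0.442) (log2, SE), per the authors' deposited table. None of the 4 was called, beside 6.57% of all tested genes, and 2 were positive in sign. The 95% interval of Chac1 ran from 0.764- to 2.27-fold, and includes 2-fold.

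The chaperones and folding enzymes lay near 0 with wide intervals. Over these genes the log2 fold changes had a median of 0.096, and 12 of 14 were positive in sign. Of the 14, 0 were called, beside 6.57% of all tested genes. Hspa5 was at 0.18 ± 0.37 (log2, SE) with an adjusted p of 0.860 per the authors' deposited table, and had an interval of 0.680- to 1.88-fold. Hsp90b1 was at -0.26 ± 0.36 (adjusted p = 0.768), Calr at 0.13 ± 0.28 (adjusted p = 0.859) and its membrane-bound relative Canx, calnexin, at 0.068 ± 0.13 (adjusted p = 0.838), log2 with SE, per the authors' deposited table. Canx had the narrowest interval of the 14, from 0.883- to 1.24-fold. Hspa5 (ENSMUSG00000026864) lies on chromosome 2 from 34771970 to 34777547 on the plus strand. These GENCODE bounds also reach further upstream than the RefSeq start, so the site printed above lies inside them.

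The protein disulfide isomerases, which form and rearrange disulfide bonds, were at 0.069 ± 0.27 for Pdia3, 0.078 ± 0.35 for Pdia4 and 0.23 ± 0.30 for Pdia6 (log2, SE, from the authors' deposited table). Of the J-domain partners of BiP, Dnajb11 was at 0.084 ± 0.28 and Dnajc3 at -0.12 ± 0.21, each with an adjusted p above 0.05, per the authors' deposited table. Hyou1, an ER chaperone that exchanges nucleotide on BiP, was at 0.027 ± 0.38, and Manf, a secreted ER stress protein, at 0.35 ± 0.45 (log2, SE, from the authors' deposited table). Sdf2l1, a component of ER chaperone complexes, was at 0.39 ± 0.58 and Creld2, an ER-resident protein with disulfide isomerase activity, at 0.11 ± 0.58 (log2, SE), so for both a 2-fold difference in the positive direction lay inside the interval, per the authors' deposited table.

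Dnajb9 came nearest to a call among the chaperones. This J-domain protein, also called ERdj4, brings BiP to IRE1 and is a well-known target of XBP1. In the authors' deposited table it stood at 0.74 ± 0.25 (log2, SE, unadjusted p = 0.00342), or 1.67-fold with a 95% interval of 1.18 to 2.34. Its adjusted p was 0.0512, just outside the threshold, and it was below 0.05 in 3 of the alternative treatments of the table (0.0405 to 0.0495). The gene (ENSMUSG00000014905) lies on chromosome 12 from 44205559 to 44210326 on the minus strand.

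Genes of ER-associated degradation, which pulls misfolded proteins out of the ER for the proteasome, gave no call by the authors' test. Called genes were 6.57% of all tested genes. At an unadjusted p below 0.05 there were 0 of 5, and with so few genes these counts say little. Syvn1, the ubiquitin ligase HRD1, was at 0.53 ± 0.38 (SE, adjusted p = 0.477) and its partner Sel1l at 0.071 ± 0.21 (adjusted p = 0.905), log2 in the authors' deposited table. Herpud1, an adaptor of that ligase, was at 0.29 ± 0.19 (adjusted p = 0.413) and Edem1, which selects glycoproteins for disposal, at -0.10 ± 0.17 (adjusted p = 0.816), per the authors' deposited table. Derl3, a membrane channel component, had the widest interval of all 36 members, 0.237- to 2.79-fold around -0.30 ± 0.91 (log2, SE, adjusted p = 0.907), per the authors' deposited table. Derl3 is abundant in plasma cells and exocrine pancreas. Plasma and B cell markers were read beside it: 8 of 9 were in the table, and 0 of 7 tested were called by the authors' test. Only Sdc1 (negative) had an unadjusted p below 0.05, and the median of the 7 was -0.17. The mean normalized counts of the 8 ran from 2.69 (Mzb1) to 3743 (Sdc1, a gene hepatocytes also express), with Ighm at 122.5, Igkc at 58.9 and Jchain at 10.7, beside 303.5 for Derl3. These markers are named after their values were seen. Of 7 pancreatic acinar markers, 4 were in the table, and 3 of these had mean normalized counts of 0.0441 to 0.137. Cela2a, the 1 acinar marker tested, was at a mean normalized count of 6.48 and at -1.05 ± 0.40 (log2, SE, unadjusted p = 0.0084, adjusted p = 0.0913), per the authors' deposited table. That is the sign of Derl3, and the part of either cell type in the value of Derl3 was not tested.

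Of the sensors, Eif2ak3 (PERK) had the largest estimate, at 0.46 ± 0.16 (log2, SE, unadjusted p = 0.00531, adjusted p = 0.0686) in the authors' deposited table, with an interval of 1.10- to 1.71-fold. Eif2ak4 (GCN2) was at 0.036 ± 0.14 (adjusted p = 0.933) and Ern1 at 0.041 ± 0.15 (adjusted p = 0.922), per the authors' deposited table. Atf6 was at -0.16 ± 0.12 (adjusted p = 0.511) and Xbp1 at 0.24 ± 0.19 (adjusted p = 0.535), per the authors' deposited table. The sensors had SE from 0.120 to 0.185, beside 0.126 to 0.584 for the chaperones and folding enzymes, and the interval of Eif2ak4 reached 0.843- to 1.25-fold. Both regulatory subunits of the phosphatase that resets eIF2alpha were near 0, the stress-induced Ppp1r15a (GADD34) at -0.029 ± 0.28 and the constitutive Ppp1r15b at -0.079 ± 0.13 (log2, SE, adjusted p = 0.974 and 0.809, from the authors' deposited table).

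Set side by side, the chaperone group had a median log2 fold change of 0.084 with 0 of 19 called and 15 positive in sign. The ATF4 group had a median of 0.38 with 2 of 10 called (20%) and 6 positive in sign. Of all tested genes, 6.57% were called and 49.2% were positive in sign, and the counts of calls in both groups are small. The medians differed by -0.29 (chaperone minus ATF4), and the median SE over the genes of both groups was 0.352. With chaperones and folding enzymes alone set against the 4 enzymes alone, the medians were 0.096 and 0.12. The 6 regulators of the ATF4 group had a median of 0.46. The genes are not replicates of the condition, and the difference between the groups has no test.

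Most members of every role had a standard error above that of genes of like level, 34 of the 36 lying above the median of their neighbours. For Hspa5 the SE (0.37) was 2.50 times the median of the 500 tested genes nearest in level. Over the 19 genes of the chaperone group the ratio had a median of 2.33 and a range of 0.926 to 7.56. The SE lay above the median of its neighbours in level for 18 of 19, Canx being the exception, and above the 95th percentile for 7. The ratio was 7.56 for Derl3, 5.395 for Sdf2l1, 4.72 for Creld2, 3.57 for Manf, 3.02 for Syvn1, 2.83 for Hyou1 and 2.33 for Dnajb11. In the ATF4 group the SE lay above the median of its neighbours for 9 of 10 and above the 95th percentile for 4. The ratio there had a median of 1.60, with 3.28 for Chac1 and 2.795 for Atf3 but 0.740 for Atf4, and in the sensors and phosphatase subunits a median of 1.38. Which mice were high or low was not analysed here, and what underlies the wide errors was not tested.

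**Figure D2:**
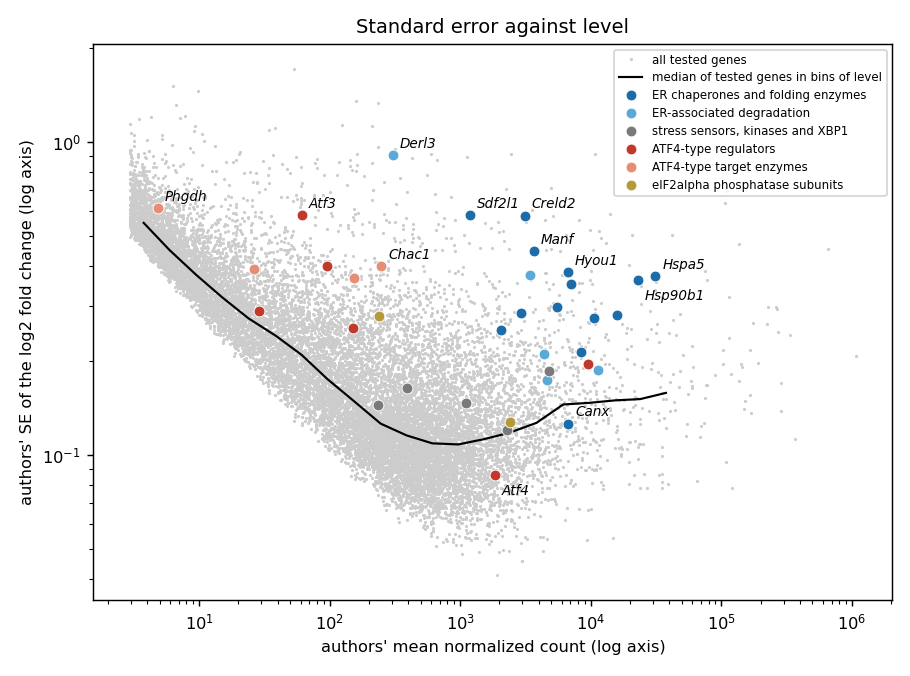
The authors' standard error of the log2 fold change (y axis, log scale) is plotted against their mean normalized count (x axis, log scale) for all tested genes (grey), with the median in bins of level (black line) and the 36 members coloured by role. Derl3, Sdf2l1, Creld2 and Manf lie 3.57 to 7.56 times above the median of genes of like level, whereas Canx (0.926) and Atf4 (0.740) lie below it.

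The standard errors set what this comparison could have called. The smallest absolute statistic among called genes was 2.94, so a gene needed a log2 fold change of at least 2.94 times its SE. For Hspa5 that is a 2.14-fold difference, for Sdf2l1 3.29-fold, for Creld2 3.27-fold and for Derl3 6.34-fold. For Atf4 a 1.19-fold difference was enough, and for Canx 1.29-fold. The median of this limit was 1.83-fold over the chaperone group, 2.17-fold over the ATF4 group and 1.35-fold over the sensors and phosphatase subunits. This limit applies to the estimate and is not a bound on the true difference. For most genes of the chaperone and ATF4 groups, an estimate of a moderate rise or fall would therefore not have been called. The absence of a call does not show that levels were equal on both sides.

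Genes holding these promoter elements were then read in the comparison. Across the whole table, 28 tested genes had a window with either form of the ER stress response element, 11 members and 17 others. None of the 28 was called in the authors' comparison, beside 6.96% of the 11513 tested genes with any window. At an unadjusted p below 0.05 there were 2 positive and 1 negative of the 28, beside 1216 positive and 1150 negative of the 11513. The median log2 fold change of the 28 was 0.10. The CEBP-ATF element read TTGCATCA before Atf3 (log2 fold change 2.26), Chac1 (0.40), Herpud1 (0.29) and Nupr1 (-0.041), and TGATGAAA before Asns (-0.73), in log2 per the authors' deposited table, of which Atf3 alone was called. The sites of Atf3 and Nupr1 both begin 110 bases before the start. Of 341 tested genes with the CEBP-ATF core in their window, 30 were called (8.8%), 18 positive and 12 negative, beside 6.96% of tested genes with any window, and their median log2 fold change was -0.018.

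The wider pathway was read from lists of other genes of each arm. Among 33 tested genes of ER folding and translocation, 0 were called by the authors' test, beside 6.57% of all tested genes. At an unadjusted p below 0.05, 5 were positive and 0 negative. By sign 24 were positive, and the median log2 fold change was 0.098. P4hb, the most abundant of them and itself a disulfide isomerase, was at 0.21 ± 0.17 (SE, adjusted p = 0.527, from the authors' deposited table). Among 25 other degradation genes, 2 were called positive and 2 negative (16% in all, beside 6.57% of all tested genes). Derl2, a relative of Derl3, was at 0.35 ± 0.092 (adjusted p = 0.00686) and Sel1l3 at 0.64 ± 0.22 (adjusted p = 0.0486), per the authors' deposited table. Herpud2, a relative of Herpud1, was at -0.24 ± 0.069 (adjusted p = 0.0149) and Marchf6, an ER ubiquitin ligase, at -0.37 ± 0.12 (adjusted p = 0.0494), all log2 with SE in the authors' deposited table.

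Further genes known as ATF4 targets were called in both directions. Of 31 tested, 1 was called positive and 4 negative (16.1% in all, beside 6.57% of all tested genes). The median log2 fold change was -0.049. At an unadjusted p below 0.05 there were 4 positive and 7 negative, and by sign 15 were positive and 16 negative. Fgf21, a hormone gene that the integrated stress response and PPAR alpha both raise, was higher on the positive side at 1.21 ± 0.39 (SE, adjusted p = 0.0332, from the authors' deposited table). Got1, cytosolic aspartate aminotransferase, was lower there at -1.79 ± 0.30 (adjusted p = 4.12e-07), as was Ddit4, an inhibitor of mTORC1, at -1.66 ± 0.45 (adjusted p = 0.00804), per the authors' deposited table. Cth, which makes cysteine from cystathionine, was at -0.76 ± 0.24 (adjusted p = 0.0273) and Pck2, mitochondrial phosphoenolpyruvate carboxykinase, at -0.85 ± 0.22 (adjusted p = 0.00510), log2 with SE in the authors' deposited table. Gdf15, a stress hormone named after its value was seen, was at 1.64 ± 0.70 and not called (adjusted p = 0.154), per the authors' deposited table. Asns, the member nearest to a negative call, had the sign of Got1, Cth and Pck2. Psph and Shmt2, named after their values were seen, had the opposite sign. They were at 0.42 ± 0.16 (adjusted p = 0.0896) and 0.34 ± 0.13 (adjusted p = 0.0883), log2 with SE in the authors' deposited table.

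Each of the remaining lists held 1 call, which is 4.76% to 7.69% of its tested genes, beside 6.57% of all tested genes. Of 21 aminoacyl-tRNA synthetases, which charge transfer RNA, several of which ATF4 raises, Cars alone was called, at 0.49 ± 0.11 (log2, SE, adjusted p = 0.000574, from the authors' deposited table), and the median of the list was 0.021. Of 14 genes of eIF2, its exchange factor and its other kinases, Eif2ak1, the heme-regulated kinase HRI, was called at -0.22 ± 0.069 (adjusted p = 0.0318), per the authors' deposited table. Of 18 ATF6, IRE1 and CREB3-family genes, Traf2, an adaptor that binds IRE1, was called at 0.35 ± 0.096 (adjusted p = 0.0101), per the authors' deposited table. Of 18 cytosolic heat shock genes, Hspb1, a small heat shock protein gene, was called at 1.16 ± 0.24 (adjusted p = 8.58e-05), with a list median of -0.010, per the authors' deposited table. Of 13 mitochondrial chaperones and proteases, Lonp1, a matrix protease, was called at 0.31 ± 0.083 (adjusted p = 0.00775), with a list median of 0.096 (log2, SE, from the authors' deposited table).

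**Figure D3:**
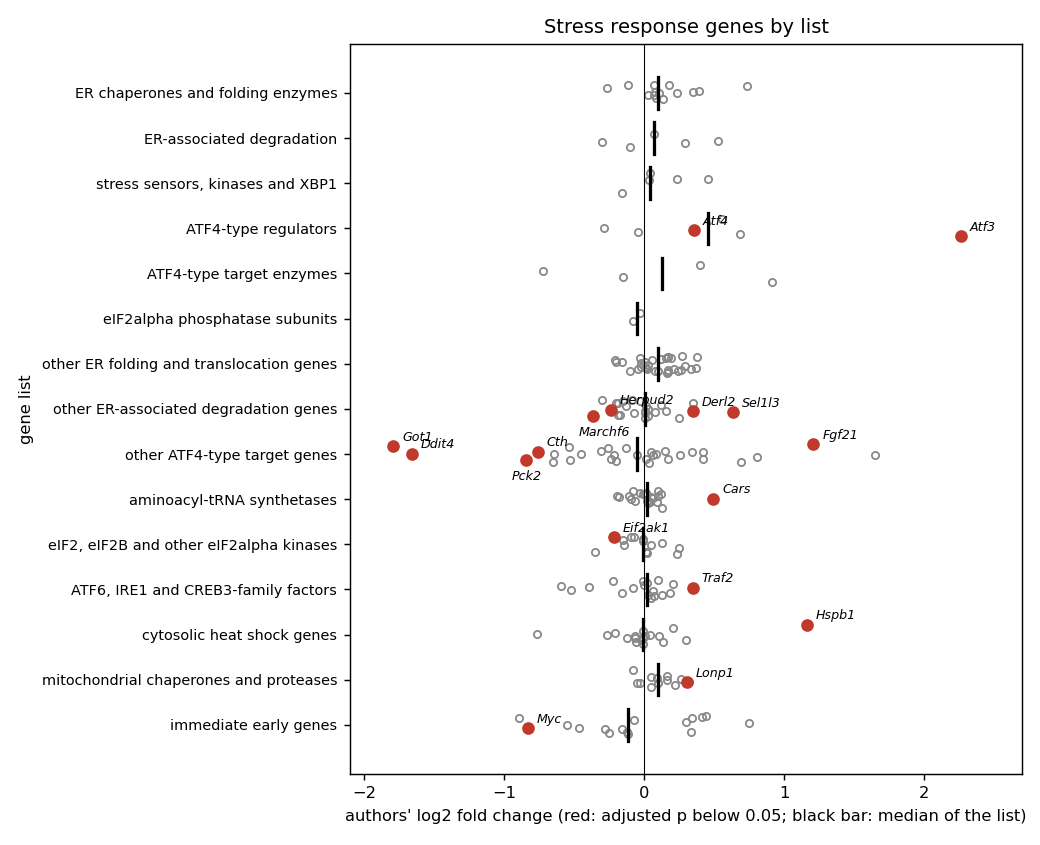
The authors' log2 fold change (x axis) is plotted for each tested gene of the 6 member lists and the 9 lists of related genes (y axis), with called genes in red and named, other genes as open circles and the median of each list as a black bar. List medians lie between -0.12 (immediate early genes) and 0.46 (ATF4-type regulators), and the called genes of the other ATF4 targets lie on both sides of 0.

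Cell type markers were read in the same comparison. Hepatocyte markers were abundant, Alb at a mean normalized count of 1079857. Of 9 tested, 8 were negative in sign, with 1 called (Ahsg) and 2, both negative, below an unadjusted p of 0.05. All 10 tested Kupffer cell markers were negative in sign, with a median of -0.56. Of these, 2 were called (20%, beside 6.57% of all tested genes) and 7 were below an unadjusted p of 0.05. All 8 tested sinusoidal endothelial markers were negative, with 0 called, 2 below an unadjusted p of 0.05 and a median of -0.40. Of the other marker lists none gave a call by the authors' test. Stellate cell markers had a median of -0.07 over 8 tested, cholangiocyte markers 0.43 over 5, neutrophil markers -0.33 over 7 and T and NK cell markers -0.67 over 7, and 0, 0, 1 and 3 of them had an unadjusted p below 0.05. Of the adipocyte markers 1 was tested, at 0.73 with an unadjusted p below 0.05. The mean normalized counts of the Kupffer markers summed to 10932 and those of the endothelial markers to 5157, beside 152051 for the chaperone group and 61.4 for Atf3. The part of these shifts in the values of the members was not tested. Other members that overlap a protein-coding gene tested by the authors on the opposite strand are Pdia3 with Catsper2, Atf5 with Nup62, Syvn1 with Mrpl49 and Manf with Dcaf1. Overlaps with noncoding, pseudogene or untested genes also exist, among them those of Dnajb11 with Gm30505 and Hsp90b1 with 1810014B01Rik. Catsper2 was called at 0.50 ± 0.15 (log2, SE, adjusted p = 0.0184, from the authors' deposited table) at a mean normalized count of 55.6, beside 10608 for Pdia3.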

How the data were processed

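Trizol RNA was made into stranded mRNA libraries, per the labels' protocols. Per the submitters' processing notes, FastQC, Trimmomatic, HISAT2, HTSeq 0.11.1 and the GRCm38 build were used, with no role, order or strand setting. Per the file headers, the authors' mean normalized count is a signal, the authors' fold change and its SE are on the log2 scale, the authors' statistic is a score, and their p-value and adjusted p-value belong to the same comparison. The 16 columns of library values match no sample label and were not used, so the planned fits of diet and DEN were not run and depth per sample was not analysed here. Checked on the values, the statistic is the fold change over its SE, the p-value is 2-sided normal, and the adjusted p-value is Benjamini-Hochberg over 16288 genes.

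Called means an adjusted p below 0.05 in the authors' deposited table. The 95% intervals assume a normal error of the given SE, and p-values rest on the authors' model. The SE of each member was compared with those of the 500 tested genes nearest in mean normalized count, the member left out. Gene positions and merged exon lengths came from GENCODE M21, and promoter windows from RefSeq. Members and lists were chosen with earlier results of these data known. All members may be named, and of other lists the called genes, at most 4 per list and direction, and the most abundant gene. Adjustment, neighbour and motif steps were tested on simulated data (Python 3.11.15, scipy 1.17.1). Alternatives were other thresholds, adjustments, count minimums, a scaled statistic, centred fold changes and other compositions of the groups.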

Additional observations from a re-analysis of the deposited data

How the results depend on the processing

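Atf4 was called under 6 of 7 alternatives and Atf3 under 5 of the 6 that tested it. These counts say little, since the 0.10 threshold could not remove a call and the 0.01 threshold only rereads the same adjusted p. Centring on the median of all tested genes (-0.0044) hardly moved the fold changes. Both were lost when the statistic was divided by its median absolute deviation, scaled to a normal standard deviation (1.438). Then 0 members, and so 0 of the ATF4 group, were called, beside 0.872% of all genes. The adjusted p was 0.305 for Atf3 and 0.228 for Atf4 (Benjamini-Hochberg on the statistic from the authors' deposited table). At an adjusted p below 0.10, 5 members were called, Dnajb9, Eif2ak3 and Ddit3 besides Atf3 and Atf4, beside 9.75% of all genes. In the chaperone group 1 gene, Dnajb9, was called at that threshold, with genes under 100 mean normalized counts left out, and with fold changes centred on the median of all tested genes or of the tenth of like level. That count minimum left 5 of 10 ATF4 group genes and 1 call, since Atf3 was not tested. The chaperone minus ATF4 median ranged from -0.29 to -0.27, and was -0.03 for chaperones and folding enzymes alone against the 4 enzymes alone. With 200 or 1000 neighbours, chosen after seeing the data, the median SE ratio of the chaperone group was 2.33 and 2.36. No paired analysis was possible because the library columns match no sample label. For the same reason no replicate could be left out, and the planned fits of diet and DEN were not run. Fold changes are limited by 1 comparison with unnamed sides, and depth per library was not analysed here.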
